A study of Rattus norvegicus with 9 samples.

Results

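Csf2 and Csf3 encode 2 colony stimulating factors, GM-CSF (granulocyte-macrophage) and G-CSF (granulocyte). They were chosen as a pair of growth factors with earlier results of these data known, so their rise with TLs is given as a description. Both were found among the 32545 genes counted, as ENSRNOG00000026805 (Csf2) and ENSRNOG00000008525 (Csf3). The cells were bone marrow-derived dendritic cells (BMDCs) of wild-type Sprague-Dawley rats aged 8 to 12 weeks. All groups shared the culture: progenitors were grown for 7 days with 20 ng/mL rat GM-CSF and 200 ng/mL human FLT3-L, a further growth factor, and were then plated at 1000000 cells per well. RNA was taken after 6 h with total lipids (TLs) of the gut bacterium Lactobacillus johnsonii N6.2 at 600 ng/mL (3 libraries), with α-GalCer at 100 ng/mL (3 libraries) or with the vehicle control (3 libraries). α-GalCer is a synthetic glycolipid that activates invariant NKT cells when CD1d presents it. TLs were given in PBS, whereas α-GalCer and the vehicle control contained DMSO and PBS, so that TLs and the absence of DMSO cannot be told apart in these libraries. The wells of every group held the recombinant GM-CSF protein of the medium, which adds no transcript to the count of Csf2.

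GM-CSF and G-CSF are secreted cytokines of the hematopoietic system. GM-CSF signals through a receptor made of a specific alpha chain and a beta chain shared with interleukin-3 and interleukin-5, and acts on macrophages, granulocytes and dendritic cells. G-CSF signals through a receptor of its own and drives the production and release of neutrophils. Both genes are usually silent in resting myeloid cells and are transcribed after stimulation through pathways that include NF-κB, and their mRNAs are short-lived because they carry AU-rich elements.

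The libraries held between 15190820 and 20591105 counts with TLs, between 16379858 and 17882018 with α-GalCer and between 16357236 and 17729881 with the vehicle control. A count of 0 allows up to 3 counts, which at these depths is 0.146 to 0.197 CPM, where CPM is the count scaled to a library of 1000000. Levels below are given as CPM at the library size scaled by TMM, a method that corrects for differences in RNA composition. On the first principal component of all genes tested, which held 54.1% of the variance, the TL libraries lay between 44.8 and 45.6 and the 6 others between -25.1 and -20.8. Vehicle replicate 2 stood apart from the other libraries on the second component, at -32.6 against -5.21 to 15.6, and results that rest on it are therefore also given without it. The replicates were described as independent assays.

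The start of rat Csf2 is shown first because elements known in human and mouse cells to switch this gene on lie close to it. The RefSeq table of 300-base windows, from 250 bases before to 50 bases after each annotated gene start in build GRCr8, held a window for Csf2. The stretch from base -150 to base -51 before the annotated start (chr10:38889724-38889823, minus strand) reads, 5′ to 3′, with the core AGATTCC of the CK-1 element and the sequence TATATAA in capitals:
Csf2: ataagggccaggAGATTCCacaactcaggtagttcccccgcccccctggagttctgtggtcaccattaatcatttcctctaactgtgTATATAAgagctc
The CK-1 element is a cytokine promoter element known from the human and mouse colony stimulating factor genes. AGATTCC lay at bases -138 to -132 on the strand of the gene, and 3.85% of the 33469 windows held it on either strand. TATATAA, which was added to the search after the sequence had been read, lay at bases -63 to -57, and 2.65% of the windows held it on the gene strand. All positions count from the annotated start, and where transcription started in these cells was not measured here. GAGGAA, a form of the PU.1 site, lay at bases -77 to -72 on the other strand of Csf2 and was present in 27.6% of all windows on either strand. TATAAA on the gene strand, and TGANTCA (AP-1), TTGCNNAA (C/EBP) and the NF-κB consensus on either strand, had no match in the Csf2 window. They were present in 8.8%, 7.33%, 10.6% and 7.51% of all windows. Only exact matches were counted, so a site that departs from these letters was missed. The lack of a match therefore does not show that Csf2 has no such site. No searched motif overlapped another in this window.

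Csf2 was nearly undetected without TLs and present in every TL library. The TL libraries held 410, 399 and 314 counts of Csf2. The α-GalCer libraries held 3, 2 and 5 counts, and the vehicle libraries held 0, 2 and 0. Every TL library thus lay above every library of both other groups, and both counts of the vehicle control came from replicate 2, the library that stood apart. As levels, Csf2 had 21.2, 27.4 and 22.0 CPM with TLs, against 0.174, 0.109 and 0.272 CPM with α-GalCer and 0, 0.114 and 0 CPM with the vehicle control. The means were 23.5 ± 3.34 CPM with TLs, 0.185 ± 0.0823 CPM with α-GalCer and 0.0379 ± 0.0656 CPM with the vehicle control (SD, n = 3 each).

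Csf3 showed the same on and off pattern with more counts. The TL libraries held 2976, 2657 and 2545 counts of Csf3. The α-GalCer libraries held 3, 0 and 2 counts, and the vehicle libraries held 1, 0 and 2. The counts without TLs were spread over 4 of the 6 libraries, with no more than 3 in any of them. As levels, Csf3 had 153.9, 182.1 and 178.4 CPM with TLs, against 0.174, 0 and 0.109 CPM with α-GalCer and 0.0585, 0 and 0.114 CPM with the vehicle control. The means were 171.5 ± 15.3 CPM with TLs, 0.0944 ± 0.0881 CPM with α-GalCer and 0.0576 ± 0.0571 CPM with the vehicle control (SD, n = 3 each). For both genes the TL level stood clear of the other groups, and the α-GalCer and vehicle libraries overlapped. In bulk RNA, a change in the number of cells that carry a transcript and a change in RNA per cell cannot be told apart.

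**Figure D1:**
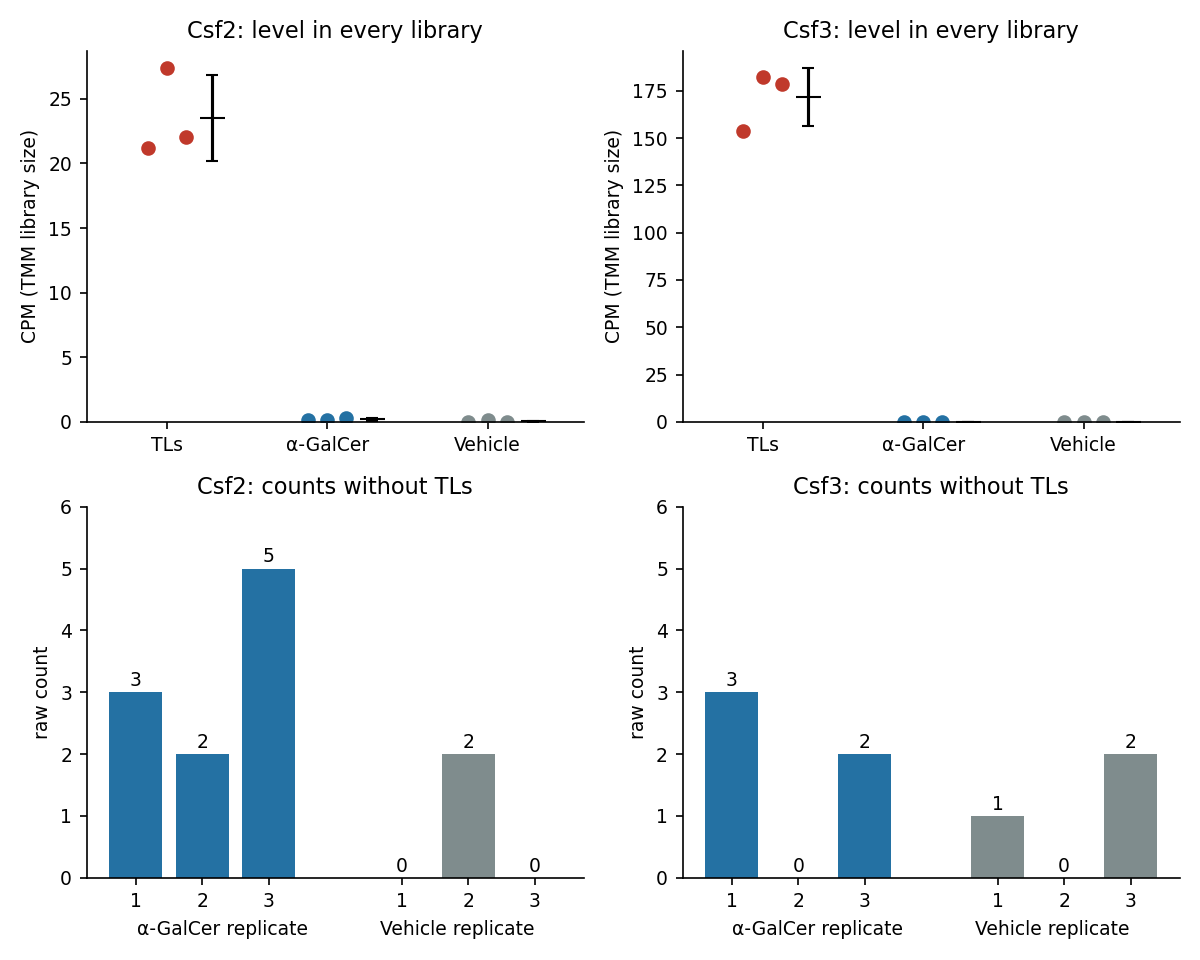
Levels and counts of Csf2 (left) and Csf3 (right). The upper panels plot CPM at the TMM library size for each library (points) with the mean and SD of 3 libraries (black) for TLs, α-GalCer and vehicle; the TL libraries sit at 21.2 to 27.4 CPM for Csf2 and at 153.9 to 182.1 CPM for Csf3, and the other libraries at the base of the axis. The lower panels plot the raw counts of the libraries without TLs, none of which exceeds 5.

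The size of the difference was taken from summed counts per total count, since the small counts without TLs set its precision. For Csf2, 1123 counts with TLs against 2 with the vehicle control gave a ratio of 555.4, with an exact 95% binomial interval from 153.4 to 4592. Against α-GalCer, with 10 counts, the ratio was 113.8 (61.7 to 238.1). For Csf3, 8178 counts with TLs against 3 with the vehicle control gave a ratio of 2696 (922.3 to 13080). Against α-GalCer, with 5 counts, the ratio was 1658 (710.2 to 5108). The Csf3 ratio to α-GalCer lay above that of Csf2 with no overlap of the intervals, whereas the intervals of the ratios to the vehicle control overlapped, and neither difference was tested. All of these intervals cover counting error only and not the spread between cultures.

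Single libraries without TLs moved these ratios. Without vehicle replicate 2, Csf2 was at 0 in the vehicle control, and the level with TLs was 241.1-fold a floor of 3 counts over the remaining libraries. Without vehicle replicate 3, which held 2 of the 3 counts of Csf3, its ratio to the vehicle control was 5425, and without vehicle replicate 2 it was 1756. Without α-GalCer replicate 1, which held 3 of its 5 counts, the Csf3 ratio to α-GalCer was 2842, and without α-GalCer replicate 2, which held none, it was 1091.

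**Figure D2:**
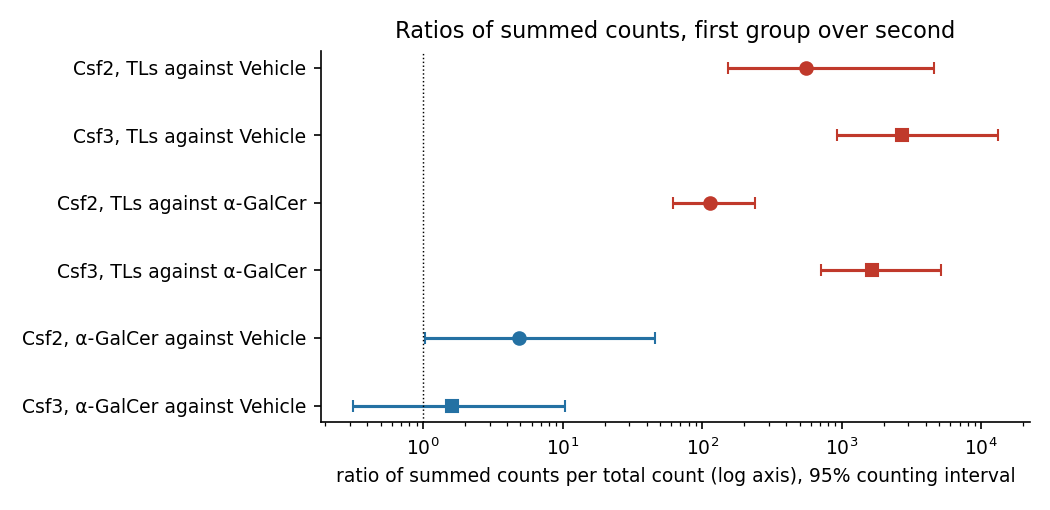
Ratios of summed counts per total count for Csf2 (circles) and Csf3 (squares), first group over second, on a log axis, with exact 95% binomial intervals; the dotted line marks a ratio of 1. The ratios of TLs to the vehicle control are 555.4 for Csf2 and 2696 for Csf3, and the intervals of α-GalCer over the vehicle control reach down to 1.04 for Csf2 and 0.316 for Csf3.

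In the edgeR quasi-likelihood fit over 12602 genes, both genes passed the call thresholds (Benjamini-Hochberg adjusted p under 0.01, log2 fold change beyond 0.3 in size) in both comparisons of TLs. Against the vehicle control, Csf2 had a log2 fold change of 9.01 (SE 0.426, edgeR adjusted p = 6.00e-08) and Csf3 of 11.37 (SE 0.268, edgeR adjusted p = 3.24e-10). These were the second largest (Csf2) and the largest (Csf3) log2 fold changes of all genes tested. Both were thus called higher with TLs, as were 9.77% of all genes tested, while 9.67% were called lower. Both also had no TL library at or below a vehicle library, as had 22.2% of all genes tested. Csf2 and Csf3 were near 0 without TLs and passed the count filter through their TL libraries. They had to differ, so their calls, adjusted p-values and ranks in both comparisons of TLs are a description. Against α-GalCer, the log2 fold change was 6.93 for Csf2 (SE 0.347, edgeR adjusted p = 9.09e-08, rank 8 from the top) and 10.74 for Csf3 (SE 0.253, edgeR adjusted p = 3.23e-10, rank 2). Here 9.85% of all genes tested were called higher and 10.5% lower, and for 24.8% every TL library lay above every α-GalCer library. The 2 comparisons share the TL libraries and are not independent of each other. Each SE of these genes was derived from F, a test against no change, and is not an interval for the size of the change. In both comparisons the binomial intervals of the ratios above are wider than the SE implies. The fitted values also rest on the small count that edgeR adds before taking logs: with a prior count of 2 in place of its default, those against the vehicle control were 7.25 for Csf2 (rank 4) and 9.94 for Csf3 (rank 1), and those against α-GalCer 6.29 for Csf2 (rank 7) and 9.68 for Csf3 (rank 1). Il10, which lay above Csf3 against α-GalCer with the default at 10.87 and has no count in the α-GalCer libraries, had 6.88 with a prior count of 2. Without vehicle replicate 2 the fitted value was 11.65 for Csf2 and 10.83 for Csf3. Both genes stayed called in each alternative that kept them in the test.

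α-GalCer against the vehicle control gave no call for either gene. The 10 counts of Csf2 with α-GalCer and 2 with vehicle gave a ratio of 4.88 (exact 95% binomial interval 1.04 to 45.8) and a log2 fold change of 2.08 (SE 0.806). Its unadjusted p was 0.0261 in edgeR's quasi-likelihood test, and the adjusted p was 0.99994. The groups overlapped in level, with 0.109 CPM in α-GalCer replicate 2 and 0.114 CPM in vehicle replicate 2. Without vehicle replicate 2, the level with α-GalCer was 2.12-fold the floor of the vehicle control. This ratio leaves out the counting error of the 10 counts with α-GalCer and is no lower bound. The 5 counts of Csf3 with α-GalCer and 3 with vehicle gave a ratio of 1.63 (0.316 to 10.5) and a log2 fold change of 0.63 (SE 0.967, edgeR adjusted p = 0.99994), and it turned to -0.069 without α-GalCer replicate 1. In this comparison edgeR called 0 genes, or 0% of those tested, with 370 at an unadjusted p under 0.05, and DESeq2 called 1 gene higher and 1 lower. All α-GalCer libraries lay above all vehicle libraries for 3.35% of the genes tested, and neither Csf2 nor Csf3 was among them. Neither gene passed the thresholds in this comparison. For Csf2 the unadjusted p of the fit ran from 0.00164 without vehicle replicate 2 (edgeR adjusted p = 0.22366) to 0.0983 without α-GalCer replicate 3, so the values neither establish a difference nor show that the groups were alike.

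**Figure D3:**
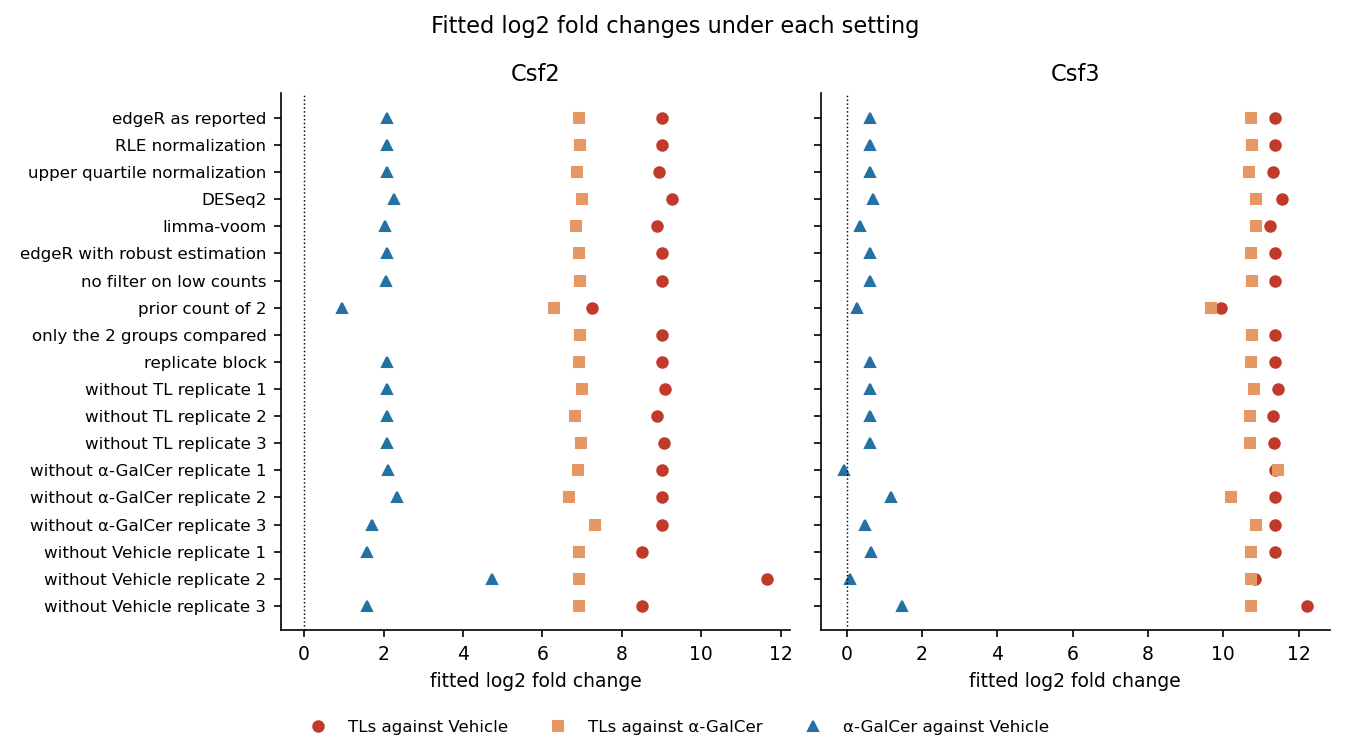
Fitted log2 fold changes of Csf2 (left) and Csf3 (right) under each setting (rows), for TLs against the vehicle control (circles), TLs against α-GalCer (squares) and α-GalCer against the vehicle control (triangles). The comparisons of TLs stay between 6.29 and 12.21 in every setting shown, while α-GalCer against the vehicle control runs from -0.069 to 4.72 and has no value with only its own libraries in the fit, where the count filter removed both genes.

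The TL libraries agreed less closely for these genes than for genes of similar count. The coefficient of variation over the TL libraries was 14.2% for Csf2, where counting alone gives 5.17%. The 3701 genes with a summed TL count within a factor of 2 of that of Csf2 had a median of 6.45% (quartiles 4.2% and 9.44%). For Csf3 the coefficient was 8.92%, where counting alone gives 1.92%, and the median of 2182 genes of similar count was 3.7% (quartiles 2.32% and 5.37%). Csf2 was highest in TL replicate 2, and Csf3 was lowest in TL replicate 1. The number of Csf3 counts per Csf2 count was 7.26, 6.66 and 8.11 in TL replicates 1 to 3. Expressed as the share of Csf3 in the counts of both genes, this was 87.9% (exact 95% binomial interval 86.7 to 89.0), 86.9% (85.7 to 88.1) and 89.0% (87.8 to 90.1), and each pair of intervals overlapped. These counts are not per transcript length, so they do not compare the abundance of the 2 transcripts. Over the 9 libraries the Pearson r of log2 CPM between Csf2 and Csf3 was 0.984, which the step between TL and other libraries sets, and over the 3 TL libraries it was 0.698.

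Few genes shared the step out of near silence. Of the genes tested, 5 had at most 0.2 CPM on average in both groups without TLs and at least 5 CPM with TLs, a class defined on the measured values and given as a description. Csf3 and Csf2 had the highest TL levels in it. Il10, the gene of an anti-inflammatory cytokine, had 13.6 CPM with TLs, 0 with α-GalCer and 0.136 CPM with the vehicle control. Ccl20, the gene of a chemokine that attracts cells bearing CCR6, had 11.4 CPM with TLs, 0.0181 CPM with α-GalCer and 0.0757 CPM with the vehicle control. The last of the class, ENSRNOG00000050713, had no symbol in the pairing of IDs and symbols used here, and its TL level of 6.2 CPM had a coefficient of variation of 51.6%. Without the lower limit on the TL level, 9 of the tested genes were near silent without TLs, and all 9 were called higher with TLs in both comparisons. A gene this low without TLs passes the count filter through its TL libraries, so that it had to differ and its call is no finding about the class. The same holds for Csf2 and Csf3, and their call with no filter on low counts is a description as well. Among all genes with any count, 4675 were near silent by the same limit. Of the 4 other near-silent genes with a symbol (Il10, Ccl20, Sfrp2 and Efcc1), 3 had a promoter window, and none of the windows held AGATTCC or TATATAA. The Ccl20 window held GAGGAA at bases -222 to -217 and the NF-κB consensus at -89 to -80, and the Sfrp2 window held TTGCNNAA at -55 to -48 and the NF-κB consensus at 13 to 22 after the start, while the Efcc1 window held none of the motifs searched.

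**Figure D4:**
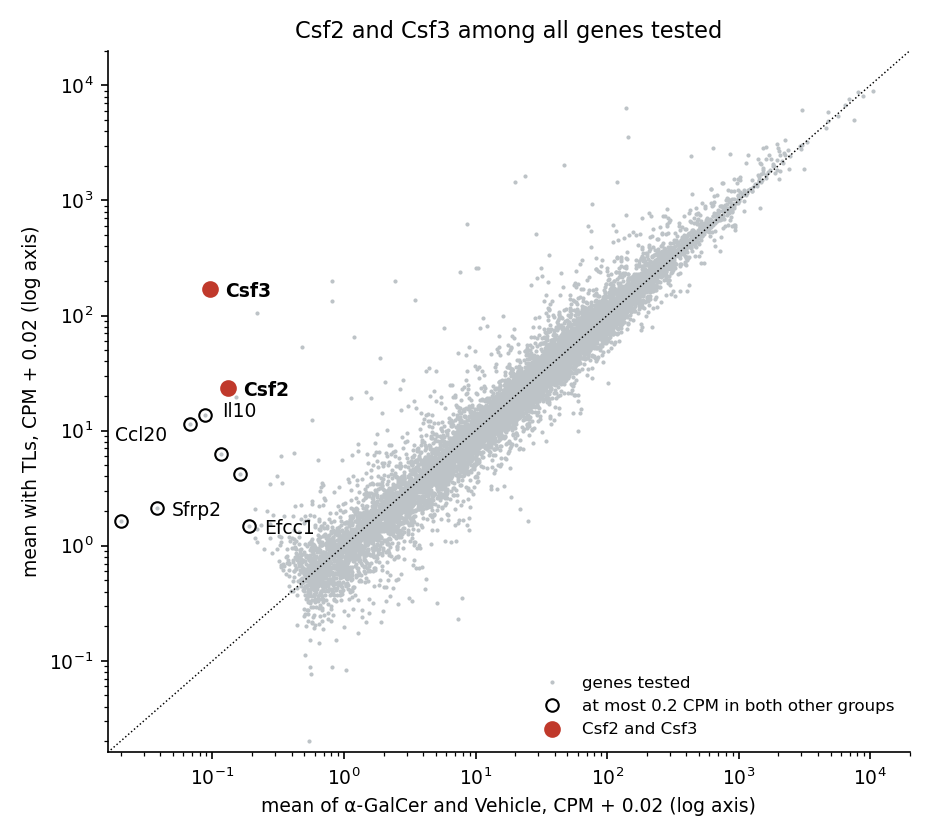
Mean level of each tested gene with TLs (vertical axis) against the mean of α-GalCer and vehicle (horizontal axis), both as CPM plus 0.02 on log axes; the dotted line marks equal levels. Csf2 and Csf3 (red) lie at the upper left, at 23.5 and 171.5 CPM with TLs, above the other genes with at most 0.2 CPM in both other groups (open circles).

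The genes whose profile across the libraries was most like that of each member had a much smaller step. For Csf2, the 5 genes with the highest Pearson r of log2 CPM over 9 libraries were Elovl4 (0.999), Rabgef1 (0.995), Cnn3 (0.994), Sdc4 (0.994) and Rftn1 (0.994). Elovl4, a fatty acid elongase, had 22.8 CPM with TLs, 9.23 CPM with α-GalCer and 8.19 CPM with the vehicle control. For Csf3 they were RGD1307554 (0.999), Ets2 (0.998), Inhba (0.998), Map3k8 (0.997) and Csrnp1 (0.997). Inhba, a subunit of activins, had 261.4 CPM with TLs, 10.4 CPM with α-GalCer and 9.8 CPM with the vehicle control. Map3k8, a kinase that activates ERK downstream of Toll-like receptors, had 52.4 CPM with TLs, 19.3 CPM with α-GalCer and 18.1 CPM with the vehicle control. All of these correlations follow the contrast between TL and other libraries, and candidates were limited to the 1839 tested genes with a symbol.

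Symbols limited what could be said of the pathway. The pairing of IDs and symbols used here holds a part of the genes that the study itself called against the vehicle control, so a gene without an ID below may have been called or not, and the members found had been selected on these libraries and are not independent evidence of a direction. Of the tested genes with a symbol, 38.9% were called higher and 37.7% lower with TLs than with the vehicle control, and their median log2 fold change was -0.20, against -0.02 over all genes tested. List counts below against the vehicle control are to be read against these shares. Against α-GalCer, the median log2 fold change of the tested genes with a symbol was -0.16. Their shares called were not counted in that comparison, so lists are given there by their median alone. In the comparison of α-GalCer with vehicle, none of the genes described below was called.

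Among 13 further hematopoietic growth factors and related cytokines, 2 had an ID, and both rose with TLs. Lif, an interleukin-6 family cytokine, had 18.0, 18.1 and 21.7 CPM with TLs, against 1.63, 0.979 and 2.18 CPM with α-GalCer and 1.35, 0.965 and 2.4 CPM with the vehicle control, a log2 fold change of 3.61 against the vehicle control (SE 0.317). Csf1, which encodes the third colony stimulating factor, M-CSF, had 204.7, 198.4 and 209.9 CPM with TLs, against 96.4, 97.6 and 99.7 CPM with α-GalCer and 110.5, 99.2 and 103.8 CPM with the vehicle control. Its log2 fold change against the vehicle control was 0.97 (SE 0.0561). Csf1 was thus present in all libraries and higher in every TL library than in any other, whereas Csf2 and Csf3 were near 0 without TLs. Of all genes tested, 22.2% had every TL library above every vehicle library, and 24.8% had every TL library above every α-GalCer library.

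Of 13 receptors, the 1 with an ID was Csf1r, the receptor of M-CSF, and it fell with TLs. It had 615.2, 606.8 and 614.6 CPM with TLs, against 941.1, 943.6 and 951.2 CPM with α-GalCer and 940.6, 882.7 and 946.5 CPM with the vehicle control. The log2 fold change against the vehicle control was -0.59 (SE 0.0464). The receptors of GM-CSF and G-CSF had no ID in the pairing and were not analysed here.

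Of 21 genes listed for the kinase and STAT relay below the GM-CSF and G-CSF receptors, 6 had an ID. With TLs, 4 of them were higher and 2 lower than with the vehicle control (median log2 fold change 0.62). Against α-GalCer the median was 0.61. Lyn, a Src family kinase, had a log2 fold change of 0.66 (SE 0.0505) against the vehicle control. Stat5a, a main transcription factor of GM-CSF signalling, had 0.70 (SE 0.0609), and Stat3, a main transcription factor of G-CSF signalling, had 0.57 (SE 0.065). Jak3 was the other higher gene, and its part in the relay of these receptors was not examined here. Pik3cd, a catalytic subunit of PI3 kinase in leukocytes, was lower at -0.94, as was Ptpn6, the phosphatase SHP-1, which dampens cytokine signals, at -0.37.

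Of 20 STAT targets and feedback inhibitors, 8 had an ID. Against the vehicle control 6 were higher and 2 lower (median log2 fold change 0.72), and against α-GalCer the median was 0.68. Osm, the cytokine oncostatin M, had a log2 fold change of 1.37 (SE 0.0774), and Bcl2l1, which encodes the survival protein Bcl-xL, of 0.79 (SE 0.0607) against the vehicle control. Pim1, Pim2, Bcl6 and Socs1 were higher as well. Pparg, a nuclear receptor that GM-CSF induces in alveolar macrophages of mice, was lower with a log2 fold change of -1.21 (SE 0.0719), and Myc was lower with -0.72 (SE 0.0589).

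Of 27 transcription factors known to act on the promoter of Csf2 or Csf3 in human or mouse cells, or on those of related cytokine genes, 12 had an ID. Against the vehicle control, 7 were higher, 2 lower and 3 not called (median log2 fold change 0.71). Without vehicle replicate 2, 8 were higher and 3 lower. There were also 8 higher without vehicle replicate 1, TL replicate 1 or α-GalCer replicate 2, and 1 lower without TL replicate 1 or without TL replicate 2. Against α-GalCer the median was 0.76. Nfkbiz, an inducible co-regulator of NF-κB target genes, had 249.5, 262.2 and 258.4 CPM with TLs, against 28.8, 34.7 and 29.7 CPM with α-GalCer and 31.4, 31.8 and 32.7 CPM with the vehicle control. Its log2 fold change against the vehicle control was 3.00 (SE 0.0752). Those of Fosl1, an AP-1 subunit, of Nfkb1 and of Ets2 were 1.88, 1.29 and 1.22, and the NF-κB subunits Nfkb2, Relb and Rela were higher as well. Cebpe, a factor of late granulocyte development, and Runx1 were lower at -0.76 (Cebpe) and -0.46 (Runx1). Jun, Jund and Nfatc1 were not called against the vehicle control, with values of 0.29 (Jun), -0.03 (Jund) and -0.36 (Nfatc1).

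Of 18 regulators of the decay of mRNAs with AU-rich or stem-loop elements, 6 had an ID. Against the vehicle control 4 were higher, 0 lower and 2 not called (median log2 fold change 0.61), and against α-GalCer the median was 0.64. Zc3h12a, the gene of the RNase Regnase-1, which degrades cytokine mRNAs, had 322.6, 333.4 and 354.1 CPM with TLs, against 36.4, 35.8 and 33.4 CPM with α-GalCer and 34.7, 38.0 and 37.8 CPM with the vehicle control. Its log2 fold change against the vehicle control was 3.19 (SE 0.0667). The related Zc3h12c had 2.33 (SE 0.196), Arid5a, a protein that stabilises some cytokine mRNAs, had 0.66 (SE 0.0895), and Cnot7, a deadenylase, had 0.46 (SE 0.0638). The genes not called against the vehicle control were Rc3h2, with 0.55 (SE 0.146), and Cnot1, with -0.07 (SE 0.0946).

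**Figure D5:**
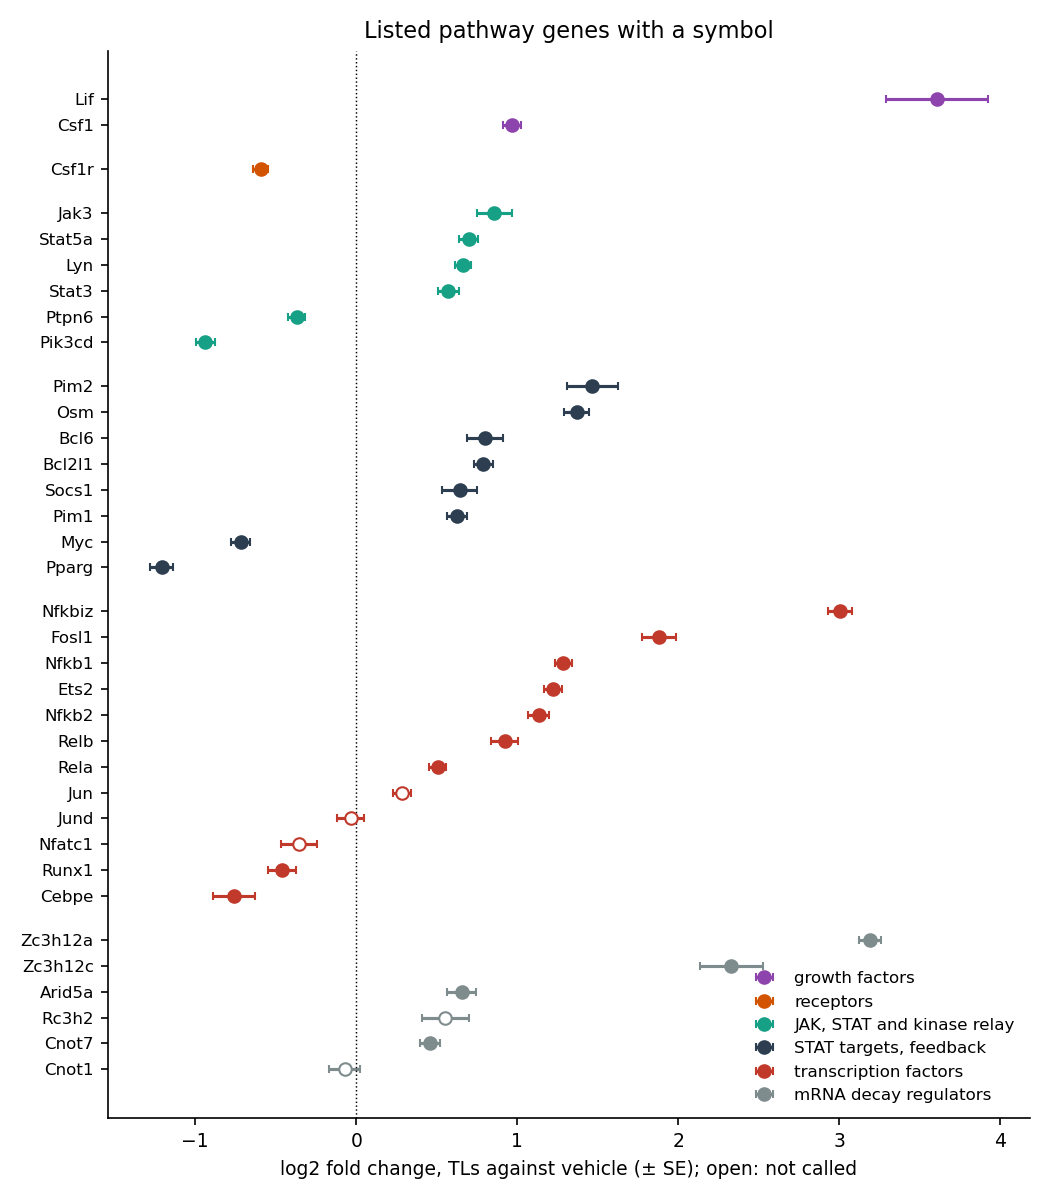
Log2 fold changes with SE of TLs against the vehicle control for the genes with a symbol of the lists of growth factors, receptors, relay, STAT targets, transcription factors and mRNA decay, by list (colours) and in order of size within each list; filled points passed the thresholds and open points did not. Zc3h12a (3.19), Lif (3.61) and Nfkbiz (3.00) lie farthest to the right of the genes plotted, and Pparg (-1.21) and Pik3cd (-0.94) farthest to the left.

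Markers of cells that could be the source of these transcripts moved with TLs too, and their part in the levels of Csf2 and Csf3 was not tested. Of 18 dendritic cell genes, 8 had an ID, and their summed level was 2098 to 2177 CPM with TLs, 1575 to 1648 CPM with α-GalCer and 1667 to 1774 CPM with the vehicle control. Itgax (CD11c) and Itgam (CD11b) were present in every library. Clec10a, a lectin of dendritic cells and macrophages, was lower with TLs than with the vehicle control (log2 fold change -1.93), as was the maturation marker Cd83 (-0.52), while the homing receptor Ccr7 (0.89) and Itgam (0.63) were higher. Against the vehicle control 4 of the 8 were higher and 4 lower. The lower genes were 2 in place of 4 with any 1 TL library left out, without vehicle replicate 1 or 3, without α-GalCer replicate 2 or 3, and with the TL and vehicle libraries alone in the fit. Of 14 monocyte and macrophage genes, 6 had an ID, with a sum of 3392 to 3417 CPM with TLs, 1952 to 2019 CPM with α-GalCer and 1993 to 2078 CPM with the vehicle control. Cd14, a co-receptor of lipopolysaccharide, had 2420 CPM with TLs, 423.2 CPM with α-GalCer and 449.7 CPM with the vehicle control. Against the vehicle control 2 of the 6 were higher, Cd14 (2.43) and Adgre1 (1.79), and 4 lower, Mrc1 (-1.27), Mertk (-0.79), Fcgr1a (-0.68) and Csf1r (-0.59). Of 18 neutrophil and granulocyte precursor genes, 2 had an ID, with a sum of 660.2 to 680.8 CPM with TLs, 475.9 to 503.1 CPM with α-GalCer and 486.3 to 543 CPM with the vehicle control. Lcn2, the iron-binding protein lipocalin 2, was higher with TLs (log2 fold change 5.10 against the vehicle control, SE 0.138), and Mpo, the myeloperoxidase of granulocyte precursors, was not called (-0.22, SE 0.055). Blnk of the B cell list fell (-1.59), as did Gata2 of the mast cell list (-0.77), and Thy1 of the stromal list rose (0.68). These were the single members with an ID of lists of 8, 13 and 13 genes. None of the markers with an ID was at 0. Only genes that the study had called had an ID, so a marker at 0 in all libraries could not appear. No gene of the T cell list (15 genes) or of the list of NK and innate lymphoid cells (12 genes) had an ID, and these cells, which also make GM-CSF, were not examined here.

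The genomic neighbours of both members were looked up by name in the RefSeq annotation of GRCr8, a later build than the one the reads were mapped to. Csf2 lay between the pseudogene Csnk2a1-ps1 and Il3, the gene of interleukin-3, with P4ha2, Pdlim4, Slc22a4 and Slc22a21 beyond the pseudogene and Acsl6 and Meikin among the 5 genes on the side of Il3. Csf3 lay between Psmd3, a proteasome subunit gene, and Med24, a Mediator subunit gene, with Gsdma, Lrrc3c, Ormdl3 and Zpbp2 on the side of Psmd3 and Thra and Nr1d1 on that of Med24. No annotated gene overlapped either member there. Of these neighbours P4ha2, a prolyl hydroxylase subunit gene, had an ID, with 45.9 ± 1.67 CPM with TLs, 24.4 ± 2.28 CPM with α-GalCer and 25.7 ± 0.642 CPM with the vehicle control (SD, n = 3 each). Its log2 fold change against the vehicle control was 0.83 (SE 0.0793, edgeR adjusted p = 1.51e-05).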

How the data were processed

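The deposited values were raw counts, 1 row per Ensembl gene. Per the labels and the study's methods, the authors captured mRNA on poly-T beads, prepared paired-end libraries (NEBNext Ultra) and used fastp, HISAT2 (Rnor_6.0) and featureCounts; versions, annotation release, strand and multi-mapping settings are not given in the sources used here. The authors' later EDASeq, iLOO and NOISeqBIO steps were not repeated.

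edgeR 4.0.16 (R 4.3.3; filterByExpr, TMM, quasi-likelihood F test) was fitted to 9 libraries with group as the term, and p-values were adjusted (Benjamini-Hochberg) over 12602 genes. SE is the absolute log2 fold change over the square root of F, and it understates the uncertainty of Csf2 and Csf3 in the comparisons of TLs. Profiles were compared as log2 CPM with a prior count of 2. The script was tested on simulated data. limma 3.58.1, DESeq2 1.42.0, other normalizations, filters and left-out libraries were alternatives. Symbols came from a supplementary table of the study's called genes, held here in part and read for IDs and names alone (1981 IDs); its fold changes and p-values were not used. Named were both members in every library, up to 4 genes per list with the smallest adjusted p, the 5 most alike genes per member, the 5 neighbours on each side, and genes switched on likewise; other genes mentioned beside these were picked with their values in view. A listed gene is not reported here, and list counts leave it out. The members and lists were chosen with earlier results of these data known. Replicates within a group differed by more than sampling noise (chi-square per degree of freedom 3.59 to 23.1).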

Additional observations from a re-analysis of the deposited data

How the results depend on the processing

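Csf2 and Csf3 stayed called higher with TLs in all 18 alternatives that tested them in each comparison. Both were near 0 without TLs and had to differ, so these calls are a description and no sign of robustness. A filter that asked for 10 or more counts in each library removed both genes. Leaving out each library in turn gave log2 fold changes against the vehicle control of 8.50 to 11.65 for Csf2 and 10.83 to 12.21 for Csf3, and against α-GalCer of 6.68 to 7.31 for Csf2 and 10.19 to 11.44 for Csf3. The other alternatives gave 7.25 to 9.27 (Csf2) and 9.94 to 11.55 (Csf3) against the vehicle control, and 6.29 to 7.00 (Csf2) and 9.68 to 10.87 (Csf3) against α-GalCer, with the lowest values at a prior count of 2. For α-GalCer against the vehicle control, leaving out each library gave 1.57 to 4.72 for Csf2 and -0.069 to 1.47 for Csf3, with -0.069 without α-GalCer replicate 1; over all alternatives the lowest adjusted p was 0.22366 for Csf2 and 0.98039 for Csf3. In this comparison DESeq2, and edgeR with no filter on low counts, each called 1 gene higher and 1 lower, and leaving out 1 library called 0 to 1 gene lower, the 1 without vehicle replicate 2. Upper quartile normalization shifted the median of all genes to -0.09 and called 1002 genes higher and 1614 lower against the vehicle control (1231 and 1219 as reported) and 1000 and 1742 against α-GalCer (1241 and 1321 as reported). Of 90 comparisons of other named genes under 1702 alternatives, 1 lost its call, that of Efcc1 against the vehicle control without TL replicate 2 (log2 fold change 2.74, adjusted p = 0.010308 in edgeR).

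Whether the replicate numbers pair the libraries is not known. Deviations from the group means correlated by -0.06 to 0.13 between libraries of the same number and by -0.14 to 0.10 between others, which does not settle it. With the replicate number as a block, Csf2 had log2 fold changes of 9.02 against vehicle and 6.93 against α-GalCer, and Csf3 of 11.37 and 10.74, all called; 2.09 (Csf2) and 0.63 (Csf3) between α-GalCer and the vehicle control were not. The block changed no call of either gene and gave 1168 genes higher and 1088 lower against the vehicle control.

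Depth limits the denominators: the groups without TLs held 2 to 10 counts of each gene, and the interval of the Csf2 ratio to the vehicle control ran from 153.4 to 4592. With 3 libraries per group, the spread between cultures rests on few values.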
